A study of Mus musculus with 2 samples.

Results

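The Mir127 and Rtl1-antisense cluster is a set of 10 miRNA genes on the plus strand of mouse chromosome 12, at the proximal end of the miRNA part of the imprinted Dlk1-Dio3 domain. The members were taken as a list of names (Mir127, Mir431, Mir433, Mir434, Mir432, Mir493, Mir337, Mir540, Mir665 and Mir673), and all 10 were found among the 1973 miRNA genes of the tables. They were then split by position into 5 genes that overlap Rtl1 on its opposite strand and 5 that lie outside Rtl1. The rule for members uses names and positions, though the list was drawn up with earlier results of these data known. The study held 1 group of 2 microRNA sequencing libraries, from pooled livers of healthy mouse embryos of both sexes, strain B6NCrl, at embryonic day 15.5. Replicate 1 came from 78 embryos and replicate 2 from 62. No treatment, genotype or other age was measured, and a pool hides differences between single embryos. In such bulk samples a change in the number of cells of a type and a change in RNA per cell cannot be told apart.

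In the Dlk1-Dio3 domain the protein-coding genes are expressed from the chromosome inherited from the father, and the noncoding RNAs, miRNAs included, from the chromosome inherited from the mother. Rtl1, a gene derived from a retrotransposon and needed in placenta and fetal muscle, is one of the paternal genes. The maternal miRNAs read from the opposite strand of its coding exon pair perfectly with Rtl1 mRNA and are known to cut it, as small interfering RNAs do. The counts do not separate the parental alleles.

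Depth was high for the cluster. Reads on the strand of an annotated miRNA gene, here called sense counts, came to 5529166 in replicate 1 and 3169882 in replicate 2. Levels are given as CPM, a gene's sense counts per 1000000 sense counts of its library, and detected means at least 10 sense counts in each of the 2 libraries. The liver label matched its main hepatocyte marker, Mir122, at a mean of 175539 CPM. The hepatocyte list (Mir122, Mir802, Mir192) summed to 185817 and 171884 CPM in replicates 1 and 2 with 2 of its 3 genes detected. Mir802, at a mean of 13.6 CPM, was the gene not detected. The erythroid list (Mir451a, Mir144, Mir486) summed to 27150 and 18579 CPM. Within it Mir451a was lower in replicate 2 (log2 ratio of replicate 2 over replicate 1, -1.10). Mir144 (0.17) and Mir486 (0.17) were higher. Skeletal muscle markers (Mir206, Mir1a-1, Mir133b) summed to 1439 and 2653 CPM, with 2 of the 3 detected. Nearly all of that sum was Mir206, at a mean of 2029 CPM. Neural markers summed to 188 and 161 CPM over 4 measured genes, of which Mir9-2 and Mir124a-1 were at 0. Mir9-1, also on that list, was not measured. These counts leave out reads that map to several places, so a 0 does not show that a miRNA was absent. The part of these other cell types in the values of the cluster was not tested.

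All 5 antisense genes lie whole inside the coding part of exon 2 of Rtl1 (annotation release M21, GRCm38, chromosome 12, exon 109589193 to 109595488, coding part 109590172 to 109595403, minus strand). In the order of the miRNA strand they are Mir431 (109590447 to 109590537), Mir433 (109591715 to 109591838), Mir127 (109592846 to 109592915), Mir434 (109594506 to 109594599) and Mir432 (109594956 to 109595030). Their mature miRNAs are shown because they carry the antisense property: RefSeq (GRCm38.p6) gives 9 of them, in RNA letters 5′ to 3′, with the seed (bases 2 to 8) in capitals.

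miR-431-5p: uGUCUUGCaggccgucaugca
miR-431-3p: cAGGUCGUcuugcagggcuucu
miR-433-5p: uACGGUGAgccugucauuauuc
miR-433-3p: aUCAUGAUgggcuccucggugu
miR-127-5p: cUGAAGCUcagagggcucugau
miR-127-3p: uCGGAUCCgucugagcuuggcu
miR-434-5p: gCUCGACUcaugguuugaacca
miR-434-3p: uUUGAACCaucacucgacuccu
miR-432: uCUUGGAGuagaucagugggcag

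Each of these 9 sequences has its full reverse complement, with 0 mismatches, at 1 place in the Rtl1 transcript, and Rtl1 was the single gene with that complement among 141767 annotated transcripts. The sites span the coding sequence of 5232 bases. That of miR-432 starts at coding base 376, that of miR-127-3p at 2495, that of miR-433-3p at 3602 and that of miR-431-5p at 4925. These 3 stretches of Rtl1 mRNA, from its coding strand in DNA letters 5′ to 3′, pair base for base with an arm of the antisense genes. Capitals mark the bases opposite the seed.

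Rtl1 site of miR-127-3p: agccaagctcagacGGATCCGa
Rtl1 site of miR-431-5p: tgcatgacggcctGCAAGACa
Rtl1 site of miR-433-3p: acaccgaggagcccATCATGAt

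The 5 genes outside Rtl1 lie before it on the miRNA strand. They are Mir673 (109571990 to 109572080), Mir493 (109580233 to 109580315), Mir337 (109585789 to 109585885), Mir540 (109586080 to 109586146) and Mir665 (109586314 to 109586407). Mir665, the nearest, ends 2786 bases from the Rtl1 gene, and none of the 5 overlaps Meg3 or Rian, the annotated long noncoding RNAs on either side. Of their 10 mature miRNAs, 0 have a full complement in the Rtl1 transcript. Both arms of Mir337 are shown because this was the most abundant of the 5, and miR-540-3p and miR-673-5p because they share their seed with another annotated miRNA.

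miR-337-5p: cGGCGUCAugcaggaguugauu
miR-337-3p: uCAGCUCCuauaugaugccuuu
miR-540-3p: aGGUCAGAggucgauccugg
miR-673-5p: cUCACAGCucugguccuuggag

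The 19 mature miRNAs of the cluster carry 19 different seeds. In 17 of them the seed was found in no other of the 1679 mature mouse miRNA names in the RefSeq table. The seed of miR-673-5p also occurs in miR-6985-3p, whose gene had 0 sense counts in both libraries. The seed of miR-540-3p also occurs in miR-6915-5p, which was not analysed here. No member's mature sequence was found inside another gene's annotated hairpin.

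The cluster was abundant in fetal liver, and most of its reads came from the Rtl1-antisense genes. Its 10 genes held 4.63% of sense counts in replicate 1 (exact Clopper-Pearson 95% interval 4.62 to 4.65) and 4.60% in replicate 2 (4.57 to 4.62), a mean of 4.61% ± 0.0268 (SD, n = 2). The antisense genes held 3.85% and 3.78%, and the others 0.784% and 0.819%. Antisense counts were therefore 4.91 times the counts of the other members in replicate 1 and 4.61 times in replicate 2, or 4.76 ± 0.209 (SD, n = 2). Mir127 carried much of that ratio, which was 2.46 without it. Mir127 and Mir431 together held 3.19% and 3.15% of sense counts. The remaining antisense genes together thus held less than the genes outside Rtl1 in both libraries. Of the 10 genes 9, or 90%, were detected, against 17.8% of all 1973 annotated genes. That share was not particular to the cluster: of the 33 plus-strand genes from Mir379 to Mir410 in the same domain, 29 were detected. The detected members had a median of 2255 CPM, against 135 CPM over all 352 detected genes.

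Mir127, one of the miRNA genes known to act against Rtl1, was the highest member. It had 99387 sense counts in replicate 1 and 60171 in replicate 2, or 17975 and 18982 CPM, and it ranked 12 of all genes by mean level. Mir431, a miRNA gene studied in muscle stem cells, followed with 76804 and 39808 counts, or 13891 and 12558 CPM. These 2 genes made up 68.8% of the cluster's counts in replicate 1 and 68.6% in replicate 2. Their values in the 2 libraries did not overlap. Mir127 stood at 1.29 times Mir431 in replicate 1 and at 1.51 times in replicate 2.

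The other antisense genes were lower, and 1 was not detected. Mir434 had 23653 and 12898 counts, or 4278 and 4069 CPM. Mir433 had 12995 and 6844 counts, or 2350 and 2159 CPM. Mir432, the member nearest the Rtl1 coding start, had 0 sense counts and 0 opposite-strand counts in both libraries. The limit that a count of 0 allows, 3 counts, lies at 0.543 CPM for replicate 1 and 0.946 CPM for replicate 2. Against that limit in each library, Mir432 was at least 7884-fold lower in replicate 1 and at least 4299-fold lower in replicate 2 than Mir434, which lies less than 1 kb away on the same strand. These bounds hold for reads mapped to a single place. The counts leave out reads that map elsewhere as well, and whether the miR-432 sequence occurs elsewhere in the genome was not tested. The 2 arms of a hairpin were not counted apart, so no value belongs to a single arm.

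Among the genes outside Rtl1, Mir337 was the highest, with 23988 and 14305 counts, or 4338 and 4513 CPM. It lay beside Mir434 in level: the ratio of Mir337 to Mir434 was 1.01 in replicate 1, where their exact 95% intervals overlapped (4284 to 4394 and 4224 to 4333 CPM), and 1.11 in replicate 2. Mir540 stood at 1469 and 1626 CPM and Mir665 at 1534 and 1552 CPM. These neighbours changed order between the libraries and were not separate. Mir673, at 247 and 264 CPM, and Mir493, at 252 and 232 CPM, were the lowest detected members and overlapped as well. The step from Mir665 to Mir673 was 6.04 ± 0.232 fold (SD, n = 2).

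**Figure D1:**
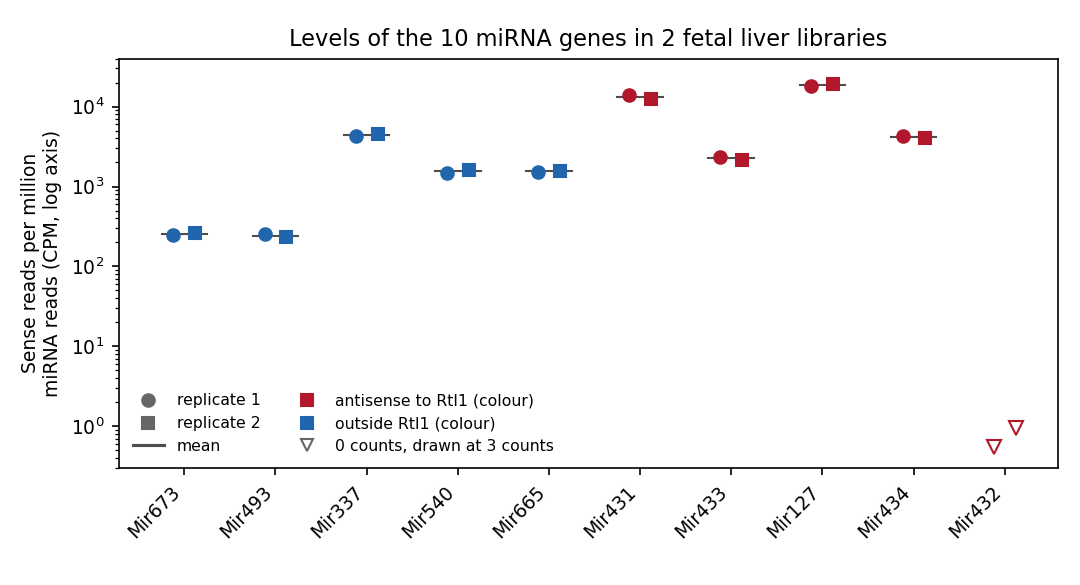
Sense CPM on a log axis for the 10 genes in the order of the miRNA strand, with 1 circle for replicate 1, 1 square for replicate 2 and a line at their mean. Mir127 and Mir431 lie highest, at 12558 CPM or more in both libraries, and Mir432, with 0 counts, is drawn at the level of 3 counts in each library.

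A miRNA read covers about a whole mature miRNA whatever the length of the hairpin, so CPM was used to order the genes. Divided by hairpin length, mean levels ran from 264 CPM per base for Mir127 and 145 for Mir431 to 2.92 for Mir493 and 2.81 for Mir673. On that scale the first 4 genes kept their places, while Mir540 (23.1 CPM per base) passed Mir433 (18.2) and Mir493 passed Mir673.

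Along the strand the level did not follow position in a simple way. The 2 genes farthest from Rtl1, Mir673 and Mir493, were the lowest detected ones, and the 3 within 1 kb of each other (Mir337, Mir540 and Mir665) lay between 1543 and 4426 CPM on average. Inside Rtl1 high and lower genes alternated, from Mir431 to Mir433, Mir127 and Mir434. The last gene, Mir432, was not detected.

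**Figure D2:**
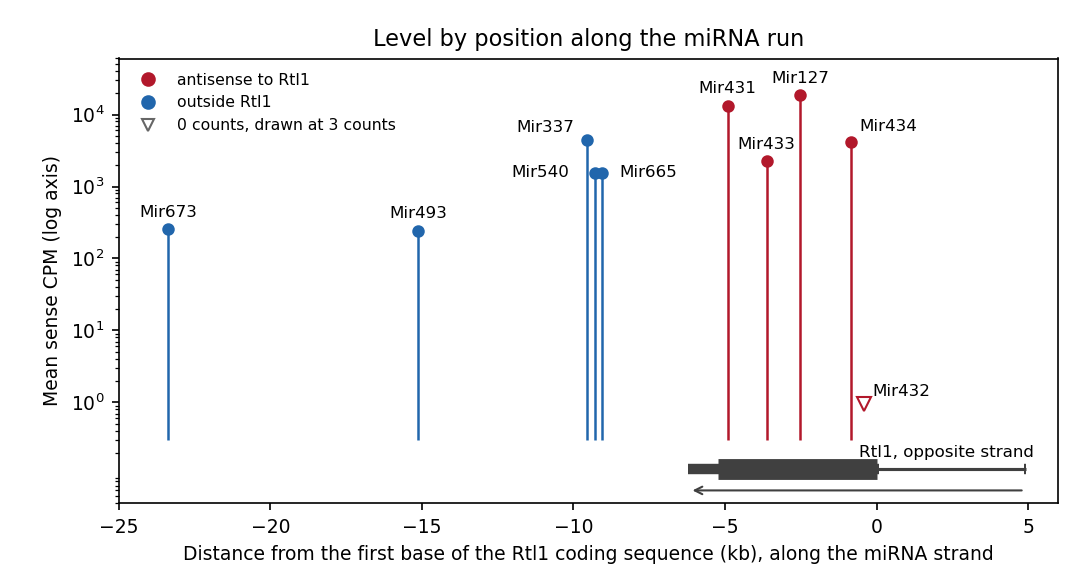
Mean sense CPM of the 2 libraries on a log axis against distance in kb from the first base of the Rtl1 coding sequence, with the Rtl1 gene drawn below (thick, coding; medium, exon; line, intron) and its direction as an arrow. The 5 antisense genes lie over the coding part of exon 2, and Mir432, at 0 counts, is drawn at 3 counts of replicate 2.

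The hairpins were folded with RNAfold to describe the members by something other than reads. Predicted folding energy per base was -0.316 kcal/mol for Mir432, the weakest of the 10. That is weaker than the upper quartile, -0.342, of 997 RefSeq mouse hairpins. Mir127 stood at -0.501, Mir431 at -0.477, Mir434 at -0.398 and Mir433 at -0.361. Outside Rtl1 the values ran from -0.465 (Mir673) to -0.610 (Mir540), against a median of -0.407 over all hairpins. GC content had a median of 57.1% in the antisense and 53.2% in the other hairpins.

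At the median, the 2 pools differed over the cluster about as much as over all genes of at least 100 CPM. The spread was smaller over the cluster. Those genes include the detected members and were not matched to them in depth. Each detected member's log2 ratio, replicate 2 over replicate 1 on TMM-scaled sizes, lay between -0.17 (Mir431) and 0.12 (Mir540). The median absolute log2 ratio was 0.0984 over the 9 members and 0.115 over all 187 genes of at least 100 CPM. The SD of log2 ratios was 0.110 over the members and 0.203 over those 187 genes, or 0.187 without Mir451a. The median log2 ratio was -0.01 over the 9 members tested and -0.02 over all 456 genes tested. By group it was -0.12 for the 4 antisense genes tested and 0.03 for the 5 others. That difference between groups was not tested.

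Counting error was small enough at this depth for some of these differences to pass a test of the reads. Of the 9 members tested, 5 differed between the libraries by the exact binomial test (Benjamini-Hochberg adjusted over all genes tested), 2 higher and 3 lower in replicate 2. The background over all 456 genes was 38.6%, with 18.9% higher and 19.7% lower. Among genes of at least 100 CPM, 61.0% of 187 passed, and a count of 5 in 9 is near that share. The detected members had means of 242 CPM or more, so that share is not matched to their depth. The share among genes of the members' own depth was not measured. Mir431 was lower in replicate 2, with a log2 ratio of -0.17 (95% interval -0.19 to -0.15, exact binomial test, adjusted p = 4.78e-82). Mir433 (-0.15) and Mir434 (-0.10) were lower too. Mir127 was higher in replicate 2, at a log2 ratio of 0.05 (0.04 to 0.07, exact binomial test, adjusted p = 1.82e-11), and so was Mir540 at 0.12. Mir493 (-0.15), Mir337 (0.03), Mir673 (0.07) and Mir665 (-0.01) did not pass. Among the antisense genes, Mir127 thus differed in the opposite direction from the other 3 tested. This test compares 2 libraries and not conditions. When the spread between pools was estimated over all genes (edgeR exact test with a common dispersion, biological coefficient of variation 14.7%), 0 of 9 members passed and 0 had an unadjusted p under 0.05, with 0.877% of all genes called. That spread was estimated from the same 2 libraries it was used to compare, which leaves differences of this size little room to pass, so a count of 0 does not show that the members were equal.

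**Figure D3:**
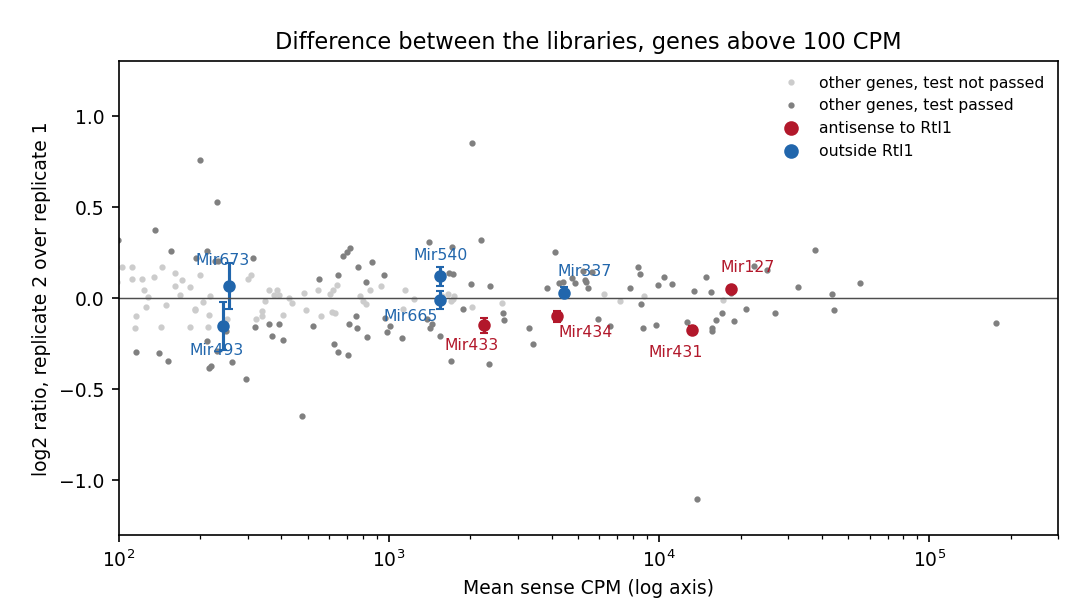
Log2 ratio of replicate 2 over replicate 1 against mean sense CPM (log axis) for genes above 100 CPM, with exact 95% intervals for the members and other genes in grey. The members lie between -0.17 and 0.12, inside the scatter of the other genes.

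Other miRNA genes within 50 kb of the cluster were read in the same way. Mir770, in an exon of Meg3, stood at 194 and 190 CPM. Mir1906-1, also in an exon of Meg3, had 0 sense counts. Mir3070a had 87 and 63 counts and Mir3070b had 2 and 1. Their 4 annotated arms hold 3 distinct sequences, and the counts leave out reads that fit more than 1 place. Mir341 and Mir370, in introns of Rian, stood at 2294 and 2443 CPM and at 613 and 733 CPM. Their neighbours in Rian, Mir1188 and Gm23912, had 78 and 53 counts and 0 counts. Mir341 (log2 ratio 0.06) and Mir370 (0.23) were higher in replicate 2 by the exact binomial test.

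At the start of the Rtl1 coding sequence the annotation places Mir136 on the miRNA strand and Mir3071 on the strand of Rtl1, over the same bases. The identifier now given to Mir3071 had 6785 and 3954 own-strand counts, or 1227 and 1247 CPM. It carries another version number in release M21 than in the deposited tables, and Mir136 was not analysed here under an identifier of its own. Whether these reads came from Mir136, a sixth gene antisense to Rtl1, or from Mir3071 therefore cannot be told apart.

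Beyond the cluster, the 33 plus-strand genes from Mir379 to Mir410, the distal run of the same domain, held 11.6% of sense counts in both libraries. Counts of the 10 members were 0.399 times those of the distal run in replicate 1 and 0.396 times in replicate 2. Another 251524 and 130443 plus-strand reads there were counted as opposite-strand reads of annotated minus-strand genes, and with them, an alternative chosen after seeing the data, the ratio was 0.287 and 0.292. The 3 highest genes there were Mir411, Mir487b and Mir369. In the order of all genes Mir127 ranked 12 and Mir487b 15. By mean level the genes ranked just above Mir127 were Mir322 (22429 CPM), Mir21a (20891 CPM) and Mir223 (18838 CPM), and those just below were Mir30e (18411 CPM), Mir130a (17155 CPM) and Mir487b (17084 CPM). The ranges of Mir127 overlapped those of Mir223 and Mir30e over the 2 libraries. With 2 libraries of 1 group, likeness in pattern across conditions could not be measured.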

How the data were processed

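Small RNA of under 30 nucleotides, per the labels, was sequenced from 2 pools of fetal liver. Each library has 1 deposited table of raw, whole-number counts of reads for every miRNA gene. Per the text deposited beside them, counting used mm10 and annotation release M4. Not given in the sources used here are the aligner, counter and trimming. The tables count both strands, the gene's strand and the opposite strand. Reads assigned to no gene entered no library size or test. Of all reads, 23.9% and 21.4% were unmapped and 29.3% and 31.1% mapped to several places in replicates 1 and 2.

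Names and positions came from release M21 on the same assembly. Of 1973 identifiers 1894 matched. Of the members 3 (Mir337, Mir540, Mir127) carry another version number there, so their positions in counting may differ. All 10 were found in RefSeq with the coordinates of M21.

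The libraries were compared by an exact conditional binomial test, two-sided, for each gene whose counts summed to 10 or more, using TMM sizes from edgeR 4.0.16 in R 4.3.3, Benjamini-Hochberg adjustment and a threshold of 0.05. Alternatives were total counts, DESeq2 1.42.0 size factors, other minimums, both strands, and edgeR's exact test with a common dispersion. Shares carry exact Clopper-Pearson intervals (scipy 1.17.1). PCR reads are not independent molecules, so intervals and limits cover counting error only. Hairpins were folded with RNAfold 2.7.2.

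The members and lists were chosen with earlier results of these data known. Named were all members, every miRNA gene within 50 kb, the 3 genes on either side of Mir127 in level, the 3 highest of the distal run, and genes that share a seed with a member. Other marker lists (leukocyte 19494 and 18220, endothelial 44812 and 43586, mesenchymal 17535 and 15932 summed CPM, and Mir675 at 134 and 154 CPM) were also measured. The leukocyte sum covers Mir223 and Mir150 only, as Mir142 was not measured.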

Additional observations from a re-analysis of the deposited data

Results flagged for a closer look

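Reads on the strand opposite to a member were outside the main measurement. Mir337 had 167 opposite-strand counts in replicate 1 and 76 in replicate 2, above the 3 counts that a 0 allows. They were 0.691% (exact 95% interval 0.591 to 0.804) and 0.528% (0.417 to 0.661) of its reads. The annotation places Mir3544 on that strand, over the same bases. Mir127 had 1 such count in replicate 1, and the other 8 members had 0 in both libraries. At the identifier now given to Mir3071, replicate 1 had 17 opposite-strand counts, also above the limit, and replicate 2 had 1. With no control samples, these values were set against the counting limit alone.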

How the results depend on the processing

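The share of the 10 members, 4.61% of sense counts, moved with its denominator: 4.20% with both strands counted, 4.20% when reads on the opposite strand were given to the gene annotated there, 3.68% over uniquely mapped reads and 1.73% over all reads. With a single library left out it ran from 4.60% to 4.63%. The ratio of antisense to other members was 2.46 without Mir127 and ran from 4.61 to 4.91 with a single library left out. It moved by less than its SD with all plus-strand genes of the interval and with both strands, though few opposite-strand reads lay at the members. Overlap by exon picked the same 5 genes, and a hand-fixed list of antisense genes gave the same 4.76. Neither of these is a separate check. The count of 5 members that differed between libraries was 0 by edgeR's exact test with a common dispersion, which was estimated from these same 2 libraries. Under the other 5 settings it was 5 or 6: Mir337 joined under total counts and DESeq2 size factors, and Mir493 with at least 50 counts and with both strands. The log2 ratio of Mir665, which did not pass, was -0.01, and 0.0170 by total counts. No paired analysis was possible because there was 1 group. Reads from several loci are missing from all values.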
